A study of Homo sapiens with 60 samples.

Results

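Cells of HT29, an established epithelial line from a human colorectal adenocarcinoma, were given the medium dose of a water extract of Saengmaek-san for 24 h and profiled by RNA sequencing. Saengmaek-san is a herbal formula, traditionally made of ginseng root, a lilyturf-type tuber and Schisandra fruit. The comparison set 3 libraries of cells given 100 µg/mL of the extract against 3 libraries of cells given DMSO as vehicle, and these 6 libraries were chosen by their labels out of 60. All 17049 genes that passed a filter on low counts were tested. The medium dose was also tested against the low dose (20 µg/mL) and the high dose (500 µg/mL) of the same extract. It was tested as well against the medium dose (100 µg/mL) of another formula, Guibi-tang. Levels were further set beside those of water extracts of Menthae Herba, Saposhnikoviae Radix, Guibi-tang, Soyo-san and Okbyeongpung-san. Each extract was given at 20, 100 and 500 µg/mL for 24 h, with 3 libraries per dose, and all shared the fit. Soshiho-tang, with 1 library per dose, was left out of the fit. The vehicle is recorded as 0.1% DMSO with the samples and as 2% DMSO in the description of the design, and whether DMSO was added together with the extracts is not stated in the labels used here. All groups are cultures of 1 cancer line, and nothing in the labels ties replicates to separate cultures, so the spread behind each p-value is that of these libraries and may be technical.

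As background, epithelial cells answer changes in their surroundings within minutes through immediate early genes, a set of transcription factors and phosphatases such as EGR1, FOS, KLF6 and DUSP1 that are switched on by mitogen-activated kinase signalling and decay fast. NF-kB is a family of transcription factors that raise chemokines and their own inhibitors, and heat shock factor raises chaperones such as DNAJB1. CLK kinases phosphorylate the serine- and arginine-rich proteins that steer splicing, and the CLK1 transcript is itself spliced in a regulated way.

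Total counts, in units of 1e6, were 26.6 to 36.9 in the medium-dose libraries and 29.8 to 38.5 in the vehicle libraries, within the 19.5 to 41.9 of all 60. The 12 markers of colon epithelium were all tested, summed to 11590 to 12920 CPM (counts per 1e6 counts, with scaled library sizes) at the medium dose and 11390 to 12170 CPM in vehicle, and none of them passed the test. Lymphocyte markers summed to 0.789 to 1.24 CPM at the medium dose and 0.786 to 0.857 CPM in vehicle, with CD3D, CD2, MS4A1 and CD79B at 0. The sum of the macrophage markers (1368 to 1548 CPM at the medium dose, 1406 to 1445 CPM in vehicle) came almost wholly from lysozyme (LYZ), with CD163, AIF1, FCGR3A and MARCO at 0. Of the 10 fibroblast markers 3 passed the filter on low counts. Fibroblast markers summed to 3.16 to 4.06 CPM at the medium dose and 4.08 to 4.70 CPM in vehicle. These low sums did not overlap, and their part in any result was not tested. Endothelial markers summed to 25.5 to 28.3 CPM at the medium dose and 27.9 to 31.5 CPM in vehicle, with CDH5 and KDR at 0. Neuronal markers summed to 11.4 to 12.8 CPM at the medium dose and 11.6 to 12.9 CPM in vehicle, with SNAP25, STMN2 and NEFL at 0. In bulk RNA fewer cells of a type and less RNA per cell cannot be told apart. The share of counts from mitochondrially encoded genes was 10.5% to 12.4% at the medium dose and 12.8% to 13.5% in vehicle, so these shares did not overlap, and their part in the results was not tested.

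Few genes differed between the medium dose and vehicle, and by little. By edgeR's quasi-likelihood test with Benjamini-Hochberg adjustment, 28 genes rose and 43 fell at an adjusted p under 0.05, which is 0.416% of the genes tested (0.164% upward and 0.252% downward). None of them changed by a log2 value of 1 or more. The changes spanned -0.56 to 0.99 on the log2 scale, and the median over all genes was 0.00. Among genes of at least 5 CPM the rises were led by CLK1, a kinase of splicing factors, and the falls included DUSP1, KLF6, NFKBIZ, EDN1 and DNAJB1. The values of the 3 medium-dose libraries lay apart from those of the 3 vehicle libraries in all 71 genes, as they did in 16.9% of all genes tested. At an unadjusted p under 0.05 there were 2171 genes (12.7%), and DESeq2 called 190 genes, 68 of them among the 71. The count of 71 rested on single libraries: it was 4 without medium-dose replicate 2, and 5, 33 and 19 without vehicle replicates 1, 2 and 3. Genes past the threshold in each of the 6 fits that leave out 1 library were CLK1, KLF6, NFKBIZ and DNAJB1, and they are described in full here. Of the 71 genes, 66 are protein coding, and 29 overlap a tested gene on the opposite strand. The strand setting of the counting is not given in the sources used here, so reads of such pairs cannot be told apart.

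**Figure D1:**
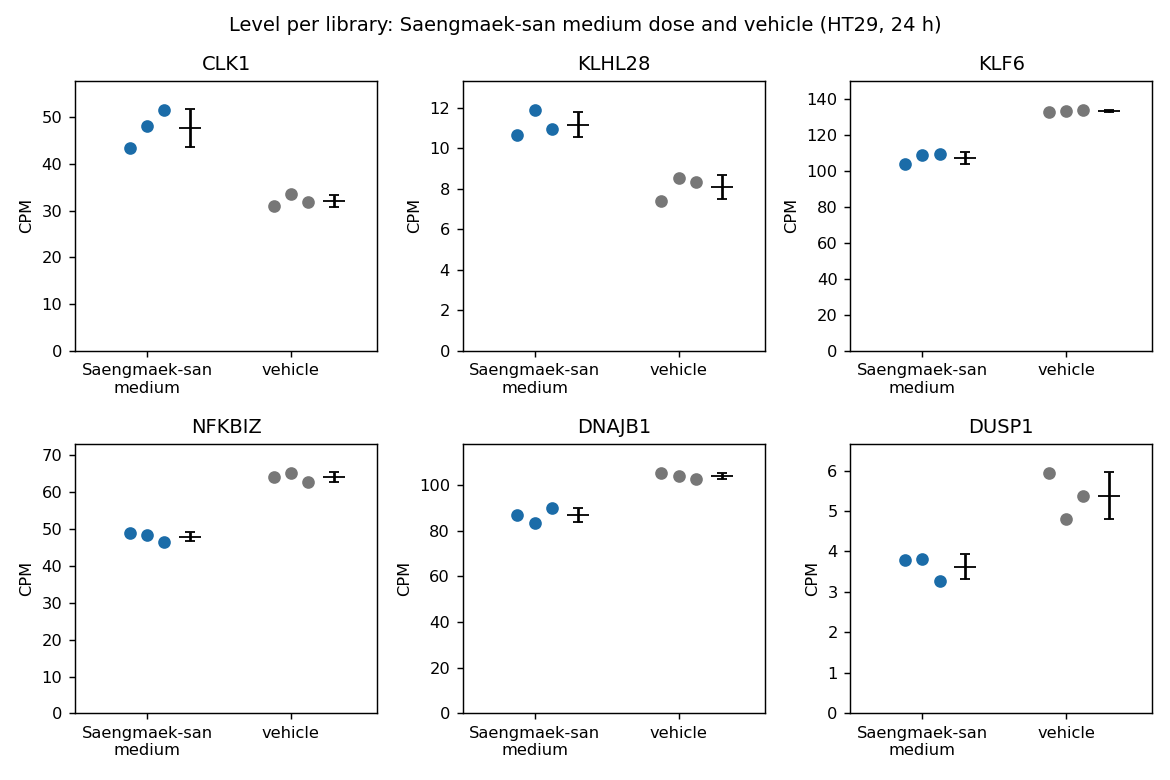
Level in CPM in each library (points), with the mean and SD of each group beside them, for CLK1, KLHL28, KLF6, NFKBIZ, DNAJB1 and DUSP1 at the Saengmaek-san medium dose and in vehicle (3 libraries each). CLK1 lay between 43.5 and 51.6 CPM at the medium dose, above all 3 vehicle libraries, and KLF6 lay between 103.7 and 109.4 CPM, below all 3.

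The promoters of these 4 genes are shown because their transcripts differed in every such fit. Each window runs from 250 bases before to 50 bases after a transcript start in RefSeq (GRCh38.p14), is given 5′ to 3′ on the strand of the gene, and holds in capitals the matches, on either strand, to 3 motifs: the NF-kB-type letters (GGGA, any base, then TTTCC), the CREB core TGACG and the heat shock element core GAANNTTC. Where RefSeq lists several starts the window with the most matches is shown.
CLK1, chr2:200864609-200864908 (-): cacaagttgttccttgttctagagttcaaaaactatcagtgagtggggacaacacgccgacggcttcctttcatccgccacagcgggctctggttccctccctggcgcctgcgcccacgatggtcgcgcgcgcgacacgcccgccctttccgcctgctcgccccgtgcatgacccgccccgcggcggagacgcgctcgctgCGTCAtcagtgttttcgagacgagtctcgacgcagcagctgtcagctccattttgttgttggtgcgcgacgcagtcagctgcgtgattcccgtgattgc
KLF6, chr10:3785160-3785459 (-): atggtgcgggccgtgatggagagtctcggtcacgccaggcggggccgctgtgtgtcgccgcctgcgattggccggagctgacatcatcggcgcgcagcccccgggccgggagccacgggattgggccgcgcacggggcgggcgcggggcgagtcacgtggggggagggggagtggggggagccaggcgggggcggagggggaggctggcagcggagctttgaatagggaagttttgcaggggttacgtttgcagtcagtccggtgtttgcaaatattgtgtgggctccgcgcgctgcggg
NFKBIZ, chr3:101827740-101828039 (+): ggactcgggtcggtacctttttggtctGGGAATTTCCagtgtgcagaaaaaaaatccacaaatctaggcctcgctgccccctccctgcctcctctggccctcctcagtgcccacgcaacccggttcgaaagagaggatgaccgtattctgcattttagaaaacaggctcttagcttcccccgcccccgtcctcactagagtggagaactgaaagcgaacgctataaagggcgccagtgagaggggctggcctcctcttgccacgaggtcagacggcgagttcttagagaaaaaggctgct
DNAJB1, chr19:14518348-14518647 (-): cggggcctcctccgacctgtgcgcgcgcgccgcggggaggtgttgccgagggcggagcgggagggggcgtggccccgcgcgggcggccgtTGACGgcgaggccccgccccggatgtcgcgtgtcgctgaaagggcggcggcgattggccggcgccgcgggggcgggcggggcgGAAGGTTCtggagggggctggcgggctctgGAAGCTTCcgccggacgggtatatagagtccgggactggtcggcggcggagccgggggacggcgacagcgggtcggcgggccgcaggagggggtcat
The NFKBIZ window held the NF-kB-type letters, 223 bases before the start, as did at least 1 window of 0.678% of all genes in the table. The DNAJB1 window held 2 heat shock element cores, which occurred in 8.21% of genes, and 1 CREB core. The CLK1 window held 1 CREB core, 49 bases before the start, and that motif occurred in 28.4% of genes. The KLF6 window held none of the 3. Among the lowered genes with a promoter in the table, 1 of 37 held the NF-kB-type letters, 11 the CREB core and 2 the heat shock element core, and among the raised ones 0, 9 and 2 of 23 did. A match is a description of the letters and not of a factor bound there.

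CLK1, a dual-specificity kinase of splicing factors (ENSG00000013441, chr2:200853009-200864744, minus strand), was the gene that rose most among those with a mean of at least 5 CPM in either group. It had 43.5, 48.1 and 51.6 CPM in the medium-dose libraries, against 30.9, 33.5 and 31.8 CPM in the vehicle libraries. The groups did not overlap, and the log2 change was 0.57 ± 0.06 (SE, n = 3 each; edgeR adjusted p = 2.96e-08), a rise of 48.4%. With each library's trend over transcript GC content removed, the change was 0.47 ± 0.06 and the adjusted p 1.25e-06. Its relative CLK4 had 10.3, 11.7 and 11.8 CPM at the medium dose and 10.1, 9.61 and 9.11 CPM in vehicle (log2 0.23 ± 0.08, adjusted p = 0.162), which did not pass. Of the 19 kinases and splicing proteins in the list of CLK and SR genes, CLK1 alone passed. At an unadjusted p under 0.05, 4 were higher (CLK1, CLK4, SRSF1 and SRSF5), as were 1160 of all 17049 genes. The median of the list was 0.05, beside 0.00 for all genes. With the GC trend removed the median was -0.005, beside -0.01 for all genes. At an unadjusted p under 0.05, 1 member was then higher and 1 lower, where 634 of all 17049 genes were higher and 1004 lower.

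KLF6, a zinc finger transcription factor of the immediate early class (chr10:3775996-3785281, minus strand), had the smallest p of the falls. It had 103.7, 108.6 and 109.4 CPM at the medium dose, against 133.0, 133.1 and 133.9 CPM in vehicle. The spread within vehicle was under 1 CPM (SD 0.491) and that at the medium dose was 3.11 CPM, and the groups did not overlap (log2 -0.31 ± 0.04, adjusted p = 1.6e-07). DUSP1, the phosphatase that switches off mitogen-activated kinases (chr5:172768090-172771195, minus strand), had the largest fall of the 43. It had 3.78, 3.81 and 3.26 CPM at the medium dose, against 5.95, 4.79 and 5.38 CPM in vehicle (log2 -0.56 ± 0.11, adjusted p = 0.00755). The groups lay apart, and DUSP1 passed in 14 of the 22 alternatives. The call was lost without medium-dose replicate 2, without vehicle replicate 1, with the 2 groups fitted alone and in DESeq2. With the GC trend removed, it was also lost without medium-dose replicate 1 or 3 and without vehicle replicate 1 or 3.

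In the list of immediate early genes, 2 of 25 members fell (KLF6 and DUSP1), none rose, and 9 were lower at an unadjusted p under 0.05, as were 1011 of all 17049 genes. The median of the list was -0.16 and that of all genes 0.00. EGR1, a zinc finger factor induced by growth factors, had 37.7, 34.8 and 39.3 CPM at the medium dose and 52.2, 48.3 and 49.5 CPM in vehicle. These values did not overlap, yet EGR1 did not pass (log2 -0.43 ± 0.13, adjusted p = 0.126). FOS (log2 -0.33 ± 0.09, adjusted p = 0.0757), JUN (log2 -0.33 ± 0.10, adjusted p = 0.15) and their activator SRF (log2 -0.16 ± 0.04, adjusted p = 0.072) did not pass either. MYC, the growth-promoting transcription factor, had 261.4, 251.7 and 301.5 CPM at the medium dose and 315.9, 311.4 and 303.5 CPM in vehicle (log2 -0.19 ± 0.08, adjusted p = 0.255). Replicate 3 of the medium dose stood nearest to vehicle for MYC, and it is the 1 medium-dose library in the later part of the library numbering. With a term for that order in the edgeR fit the adjusted p of MYC was 0.00067, but 297 genes passed in that fit, beside 71 without the term. With the GC trend removed and no order term the adjusted p of MYC was 0.418. Whether the library order plays a part in the level of MYC was not tested.

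NFKBIZ encodes the nuclear NF-kB regulator IkB-zeta (chr3:101827991-101861022, plus strand). It had 48.9, 48.4 and 46.5 CPM at the medium dose, against 64.1, 65.3 and 62.7 CPM in vehicle. The groups did not overlap, and the change of -0.42 ± 0.06 on the log2 scale (adjusted p = 1.57e-05) was -0.43 ± 0.06 with the GC trend removed (adjusted p = 1.22e-05). NFKBIZ was 1 of 24 tested members of the list of NF-kB genes and chemokines to pass, and the median of that list was -0.06. The neutrophil chemokine CXCL8 had 5.54, 5.61 and 6.98 CPM at the medium dose and 8.00, 7.96 and 7.65 CPM in vehicle (log2 -0.39 ± 0.11, adjusted p = 0.0922). CXCL8 passed in 11 of the 22 alternatives, among them the one with the GC trend removed (log2 -0.50, adjusted p = 0.0108). The NF-kB subunit RELA (log2 -0.15 ± 0.06, adjusted p = 0.23) and the chemokine CXCL2 (log2 -0.58 ± 0.26, adjusted p = 0.324) did not pass.

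DNAJB1, the co-chaperone that hands substrates to HSP70 (chr19:14514770-14529770, minus strand), had 87.1, 83.6 and 90.0 CPM at the medium dose, against 105.5, 103.9 and 102.6 CPM in vehicle. The groups lay apart by more than their spreads (SD 3.18 CPM at the medium dose and 1.47 CPM in vehicle), and the fall was -0.26 ± 0.04 on the log2 scale (adjusted p = 2.41e-04). Its call was lost with the 2 groups fitted alone, and DNAJB1 overlaps TECR on the opposite strand. It was the 1 member of 16 in the heat shock list to pass. BAG3, another HSP70 partner, was at -0.20 ± 0.07 (adjusted p = 0.204), HSPA8 at -0.14 ± 0.06 (adjusted p = 0.342) and HSPA4 at 0.13 ± 0.04 (adjusted p = 0.17), so the list held values of both signs.

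Other falls, grouped after their values were seen, were in genes of secreted signals and of signalling. EDN1, the precursor of the vasoactive peptide endothelin-1 (chr6:12290363-12297194, plus strand), had 16.3, 17.7 and 20.3 CPM at the medium dose, against 25.1, 22.1 and 25.2 CPM in vehicle (log2 -0.42 ± 0.08, adjusted p = 0.00502). Medium-dose replicate 3 was the nearest to vehicle and still below all 3 of its libraries. BMP4, a bone morphogenetic protein that restrains growth in the gut epithelium, had 337.3, 305.1 and 353.1 CPM at the medium dose, against 386.7, 381.3 and 372.7 CPM in vehicle (log2 -0.20 ± 0.05, adjusted p = 0.0338), and was the 1 member of 9 in the BMP list to pass. DUSP8, a phosphatase of the stress kinases, had 19.7, 18.5 and 17.9 CPM at the medium dose, against 22.5, 23.4 and 25.3 CPM in vehicle (log2 -0.35 ± 0.08, adjusted p = 0.0424), the 1 member of 16 in the list of MAPK feedback genes. With the GC trend removed DUSP8 did not pass (adjusted p = 0.145), nor did RGL3 (adjusted p = 0.065) and RHOB (adjusted p = 0.0887), both described next. CDC42EP2, an effector of the small GTPase CDC42, had 50.4, 45.9 and 50.8 CPM at the medium dose, against 65.3, 61.9 and 61.4 CPM in vehicle (log2 -0.36 ± 0.06, adjusted p = 7.76e-04). RGL3, an exchange factor for Ral (36.9 to 44.7 CPM at the medium dose, 49.5 to 56.04 CPM in vehicle), fell by 0.37 on the log2 scale, and so did the kinase MAST3 (25.2 to 28.5 CPM at the medium dose, 31.6 to 36.4 CPM in vehicle) by 0.36, the small GTPase RHOB by 0.24, the protein kinase PRKD2 by 0.20 and the stress-responsive kinase PLK2 by 0.18. PLK2 had a narrow spread, with 171.9, 174.8 and 175.5 CPM at the medium dose, against 195.7, 195.4 and 199.1 CPM in vehicle.

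Regulators of transcription and chromatin were also among the falls, a grouping made after their values were seen. GRHL3, a grainyhead factor of epithelial barriers, had 9.84, 9.35 and 10.0 CPM at the medium dose, against 13.0, 12.2 and 12.1 CPM in vehicle (log2 -0.36 ± 0.08, adjusted p = 0.0218). BICRA, a subunit of a SWI/SNF-type chromatin remodelling complex, had 32.2, 27.5 and 32.4 CPM at the medium dose, against 40.1, 41.3 and 38.4 CPM in vehicle (log2 -0.39 ± 0.09, adjusted p = 0.0338). AHDC1, an AT-hook protein, had 47.8, 46.5 and 53.9 CPM at the medium dose, against 66.7, 63.3 and 61.2 CPM in vehicle (log2 -0.37 ± 0.07, adjusted p = 0.0105). These 3 did not overlap between groups, and replicate 2 of the medium dose was the lowest in each. The corepressor BCORL1 (18.0 to 20.3 CPM at the medium dose, 23.4 to 24.7 CPM in vehicle) fell by 0.33, the CREB coactivator CRTC2 by 0.31, FOXP4 by 0.31, the histone methyltransferases SETD1B and KMT2B by 0.28 and 0.25, the Polycomb subunit PCGF2 by 0.28, GATA2 by 0.25, PHF12 by 0.23 and SOX13 by 0.21, all on the log2 scale and all with the groups apart. Of these, PCGF2 (adjusted p = 0.0549), PHF12 (adjusted p = 0.0516) and SOX13 (adjusted p = 0.0983) did not pass with the GC trend removed. GATA2 overlaps its antisense gene and KMT2B overlaps IGFLR1 on the opposite strand. GATA2 had 148.4, 142.4 and 159.5 CPM at the medium dose, against 182.7, 170.7 and 182.2 CPM in vehicle. Transcript GC content was 59.7% for GATA2, 63.5% for KMT2B, 64.3% for AHDC1 and 68.6% for BICRA, each above the median of 48.6% of all genes tested.

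The remaining falls had varied roles. The adaptor protein TNS4 had 480.5, 431.6 and 483.1 CPM at the medium dose, against 563.6, 555.4 and 540.1 CPM in vehicle, the highest level of the 71 genes (log2 -0.25 ± 0.06, adjusted p = 0.0246). RUBCN, a brake on autophagy, fell by 0.26, the Notch-pathway ubiquitin ligase DTX2 by 0.30 and NUMBL, a relative of the Notch inhibitor Numb, by 0.29 on the log2 scale. DTX2 did not pass with the GC trend removed (adjusted p = 0.0781). The 5 genes not annotated as protein coding all fell: MMP25-AS1 at -0.53 ± 0.13, the let-7b host transcript MIRLET7BHG at -0.40 ± 0.10, the pseudogene ZDHHC8BP at -0.37 ± 0.09, AC018629.1 at -0.35 ± 0.08 and LINC02086 at -0.34 ± 0.07. MMP25-AS1 lies antisense to MMP25, and with the GC trend removed MMP25-AS1 (adjusted p = 0.0701), MIRLET7BHG (adjusted p = 0.0823) and ZDHHC8BP (adjusted p = 0.0654) did not pass.

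**Figure D2:**
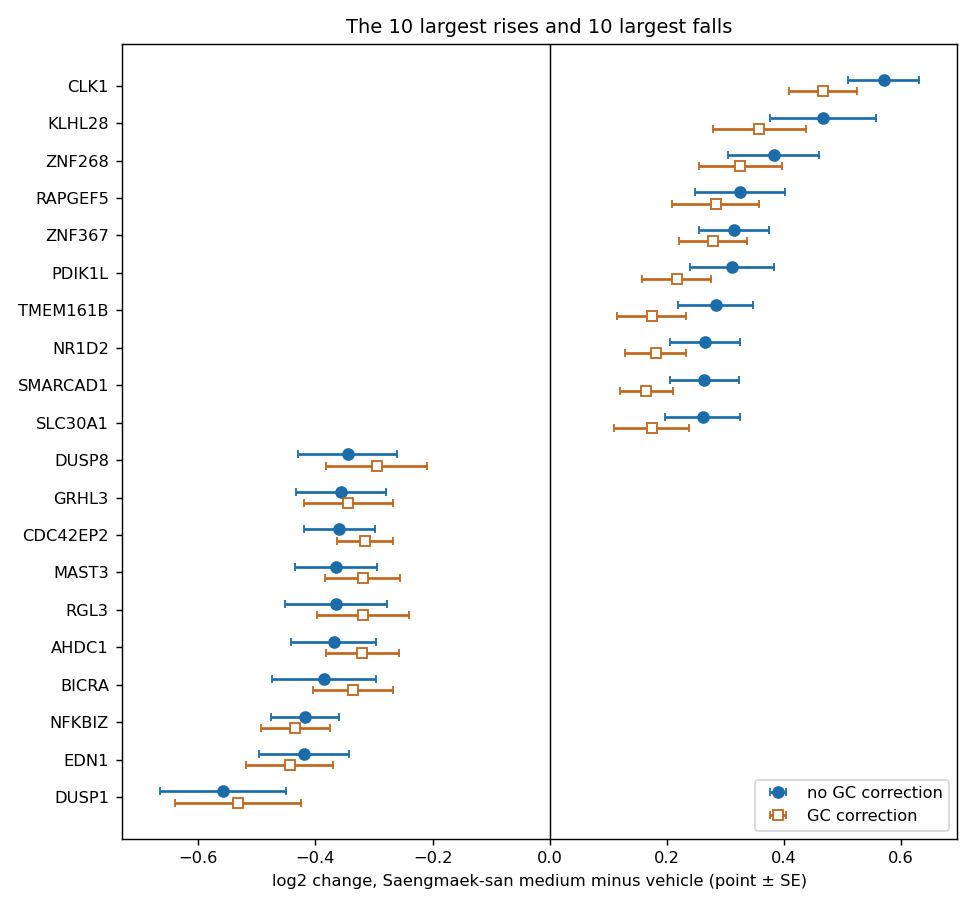
Log2 change, Saengmaek-san medium minus vehicle, with its SE, for the 10 protein-coding genes that rose most and the 10 that fell most among those of at least 5 CPM, without GC correction (filled points) and with it (open squares). The values ran from 0.57 for CLK1 to -0.56 for DUSP1, and the rises moved towards 0 with the correction (CLK1 to 0.47, KLHL28 to 0.36).

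After CLK1 the rises among genes of at least 5 CPM were led by KLHL28, a Kelch-like protein. It had 10.7, 11.9 and 10.9 CPM at the medium dose, against 7.39, 8.54 and 8.32 CPM in vehicle (log2 0.47 ± 0.09, adjusted p = 0.00755). The zinc finger gene ZNF268 had 13.0, 15.2 and 13.3 CPM at the medium dose, against 10.6, 11.1 and 10.3 CPM in vehicle (log2 0.38 ± 0.08, adjusted p = 0.0115). ZNF367, another zinc finger factor, had 35.5, 35.6 and 34.8 CPM at the medium dose, against 26.9, 29.3 and 28.9 CPM in vehicle (log2 0.32 ± 0.06, adjusted p = 0.00755). The groups did not overlap in these 3, and all 3 passed with the GC trend removed, with adjusted p-values of 0.0305 for KLHL28, 0.0262 for ZNF268 and 0.0149 for ZNF367. RAPGEF5, an exchange factor for Rap, had 11.5, 12.8 and 11.2 CPM at the medium dose, against 8.60, 9.82 and 10.00 CPM in vehicle (log2 0.33 ± 0.08, adjusted p = 0.0357). The kinase-like gene PDIK1L had 18.8 to 21.0 CPM at the medium dose and 14.7 to 16.4 CPM in vehicle (log2 0.31 ± 0.07), and the membrane protein gene TMEM161B had 24.5 to 27.8 CPM at the medium dose and 20.9 to 22.5 CPM in vehicle (log2 0.28 ± 0.06). With the GC trend removed RAPGEF5 (adjusted p = 0.0887), PDIK1L (adjusted p = 0.0981) and TMEM161B (adjusted p = 0.252) did not pass.

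SLC30A1, the zinc exporter of the plasma membrane, had 41.6, 40.1 and 36.7 CPM at the medium dose, against 31.4, 33.8 and 33.6 CPM in vehicle (log2 0.26 ± 0.06, adjusted p = 0.0439). It was the 1 of 8 tested metal-response genes to pass, and the metallothionein MT2A had 19.6, 16.7 and 22.5 CPM at the medium dose and 17.7, 17.9 and 16.3 CPM in vehicle, which overlapped (adjusted p = 0.684). NR1D2, a nuclear receptor that represses targets of the circadian clock, rose by 0.27 ± 0.06 on the log2 scale (adjusted p = 0.0246). NR1D2 had 44.5, 46.4 and 42.3 CPM at the medium dose, against 34.9, 37.9 and 38.1 CPM in vehicle. Grouped after their values were seen, genes of chromosome upkeep that rose included BARD1 (log2 0.23 ± 0.05), the remodeller SMARCAD1 (log2 0.26 ± 0.06) and the kinetochore gene ZWILCH (log2 0.23 ± 0.05). OPA1, which fuses the inner mitochondrial membrane, rose by 0.22 ± 0.05, the nuclear import receptor TNPO1 by 0.20 ± 0.05, the splicing regulator MBNL1 by 0.18 ± 0.04 and NUDT21, a polyadenylation factor, by 0.17 ± 0.04. SLC30A1, NR1D2, BARD1, SMARCAD1, ZWILCH, OPA1, TNPO1, MBNL1 and NUDT21 did not pass with the GC trend removed, where their adjusted p-values ran from 0.0887 for OPA1 to 0.37 for NUDT21. NPIPA3 had the largest rise, with 2.29, 2.20 and 2.80 CPM at the medium dose, against 1.18, 1.18 and 1.28 CPM in vehicle (log2 0.99 ± 0.24, adjusted p = 0.0391). It belongs to a family of near-identical copies, among which the estimated counts can divide reads, and its level is uncertain for that reason.

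In the other lists of pathways no member passed. The list of G1/S and DNA replication held 37 tested genes, of which 14 were higher and none lower at an unadjusted p under 0.05, where 1160 of all 17049 genes were higher and 1011 lower, and the median was 0.10, beside 0.00 for all genes. The replication factor subunit RFC3 had 79.9, 78.9 and 78.2 CPM at the medium dose and 68.1, 68.6 and 69.1 CPM in vehicle (log2 0.21 ± 0.06, adjusted p = 0.0759), and RRM2, the regulatory subunit of ribonucleotide reductase, was at 0.14 ± 0.04 (adjusted p = 0.116). The 26 genes of mitosis had a median of 0.07, with 6 higher at an unadjusted p under 0.05. With the GC trend removed their median was 0.04, with 3 higher, beside 634 of all 17049 genes. The 16 goblet and secretory genes had a median of -0.16, with 5 lower at an unadjusted p under 0.05, beside the same 1011 of all genes. MUC2, the secreted gel-forming mucin, had 23.3, 19.5 and 25.9 CPM at the medium dose and 28.5 to 30.5 CPM in vehicle (log2 -0.36 ± 0.15, adjusted p = 0.283). The membrane mucin MUC3A had 30.7, 27.0 and 28.3 CPM at the medium dose and 36.1, 35.9 and 37.2 CPM in vehicle (log2 -0.34 ± 0.10, adjusted p = 0.124). Both mucins had groups that did not overlap, and neither passed.

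Targets of the oxidant-sensing factor NRF2 had a median of 0.03 over 31 genes, 5 of them higher at an unadjusted p under 0.05, beside the same 1160 of all genes. SLC7A11, the cystine importer, had 164.0, 172.5 and 142.8 CPM at the medium dose and 97.2, 132.3 and 139.0 CPM in vehicle (log2 0.38 ± 0.14, adjusted p = 0.212). Vehicle replicate 1 was the lowest for SLC7A11 and for GCLM, a subunit of the enzyme that starts glutathione synthesis, which had 61.4, 66.7 and 60.6 CPM at the medium dose and 46.3, 54.9 and 60.7 CPM in vehicle (log2 0.22 ± 0.08, adjusted p = 0.186). HMOX1, which degrades haem, had 11.1, 10.3 and 10.6 CPM at the medium dose and 10.99, 10.4 and 9.79 CPM in vehicle (log2 0.04 ± 0.10, adjusted p = 0.922). The targets of the aryl hydrocarbon receptor CYP1A1 (0.597, 0.688 and 0.691 CPM at the medium dose, 0.336, 0.576 and 0.551 CPM in vehicle, adjusted p = 0.651) and CYP1B1 (47.2, 48.2 and 54.3 CPM at the medium dose, 45.2, 44.6 and 45.1 CPM in vehicle, adjusted p = 0.401) did not pass. The cell cycle inhibitor CDKN1A was at -0.19 ± 0.10 (adjusted p = 0.424) and TXNIP, which answers to glucose, at -0.07 ± 0.06 (adjusted p = 0.717). The 13 mitochondrially encoded genes had a median of -0.15, beside their smaller share of all counts given above, and none passed.

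The changes moved with the GC content of the transcripts. The 28 raised genes had a median GC content of 38.4% (range 34.4% to 48.2%), the 43 lowered genes one of 59.2% (range 45.1% to 68.6%), and all genes tested one of 48.6%. Among genes above a mean log2 CPM of 3, split into 10 bins by GC content, the median log2 change was 0.10 in the lowest bin and -0.05 in the highest. Across genes, which are not independent replicates, the Spearman correlation of log2 change and GC content was -0.324. The libraries differed in this trend: the correlation of a gene's deviation with GC content was 0.196, -0.56 and -0.248 in the medium-dose libraries 1, 2 and 3, and 0.558, 0.124 and 0.07 in the vehicle libraries 1, 2 and 3. Vehicle replicate 1 had the highest value and medium-dose replicate 2 the next to lowest of all 57 libraries in the fit, and these were the libraries whose removal left 5 and 4 genes. With each library's trend removed, an alternative added after this was seen, 9 genes rose and 38 fell (0.276% of genes, 0.0528% upward and 0.223% downward), 34 of them among the 71. Of those 34, 6 were raised and 28 lowered. The 13 genes past the threshold only then included CXCL8, the EGF receptor ligand EREG (log2 -0.28, adjusted p = 0.00679) and, upward, the replication helicase subunit MCM7 (log2 0.13, adjusted p = 0.0204). The part that GC content plays in the 71 calls was otherwise not tested.

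**Figure D3:**
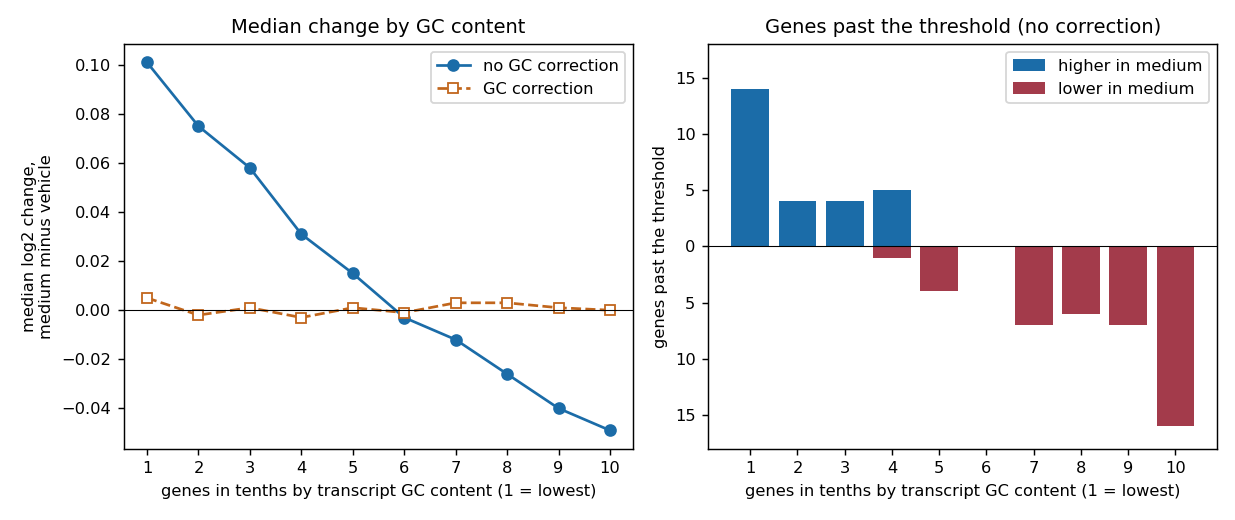
Left, median log2 change (Saengmaek-san medium minus vehicle) over 10 bins of genes by transcript GC content, without GC correction (circles) and with it (squares), for genes above a mean log2 CPM of 3. Right, genes past the threshold in the same bins without correction, upward bars for rises and downward bars for falls. Without correction the medians ran from 0.10 in the lowest bin to -0.05 in the highest, 14 rises lay in the lowest bin and 16 falls in the highest.

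The libraries also fell into an earlier and a later part of their numbering, told apart by the sign of the first principal component (13.1% of variance), with 31 earlier and 26 later libraries. All 3 vehicle libraries and medium-dose replicates 1 and 2 were earlier, and medium-dose replicate 3 was later. With a term for this order, 161 genes rose and 136 fell, including all 71, and among the earlier libraries alone 286 rose and 247 fell, including 69 of the 71. Within the earlier part CLK1 was at 0.52 (adjusted p = 5.72e-07), KLF6 at -0.32 (adjusted p = 1.25e-06), NFKBIZ at -0.39 (adjusted p = 1.25e-06) and DNAJB1 at -0.28 (adjusted p = 1.29e-05).

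The doses of Saengmaek-san lay close to each other for the genes that led this comparison. CLK1 averaged 32.1 ± 1.303 CPM in vehicle, 49.5 ± 2.50 CPM at the low, 47.7 ± 4.08 CPM at the medium and 50.1 ± 3.46 CPM at the high dose (SD, n = 3 each). The difference of the medium from the low dose was -0.05 on the log2 scale (95% interval -0.17 to 0.07) and from the high dose -0.07 (-0.19 to 0.05). KLF6 averaged 133.3 ± 0.491 CPM in vehicle, 105.7 ± 3.50 CPM at the low, 107.2 ± 3.11 CPM at the medium and 107.8 ± 1.80 CPM at the high dose, and its medium dose differed from the low by 0.02 (-0.05 to 0.09) and from the high by -0.01 (-0.08 to 0.07). NFKBIZ averaged 64.0 CPM in vehicle and 46.4, 47.9 and 47.2 CPM at the low, medium and high dose. DNAJB1 averaged 104.0 CPM in vehicle and 86.8, 86.9 and 87.2 CPM at the low, medium and high dose. All 3 doses of each gene lay on the same side of vehicle. Over the 28 raised genes the median log2 change against vehicle was 0.15 at the low, 0.23 at the medium and 0.21 at the high dose, and over the 43 lowered genes it was -0.20, -0.30 and -0.29. None of the 71 genes differed between the medium and the low dose or between the medium and the high dose at an adjusted p under 0.05, beside 0.0% and 0.00587% of all genes in those comparisons. Since the 71 were chosen with the medium-dose libraries, those counts are a description.

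In the test of the medium against the high dose over all genes, 1 gene passed, AKR1C1, an aldo-keto reductase and NRF2 target. It had 17.0, 17.8 and 15.9 CPM at the medium dose, against 22.6, 22.7 and 23.2 CPM at the high dose. The groups did not overlap, and AKR1C1 was lower at the medium dose by -0.43 ± 0.08 on the log2 scale (95% interval -0.59 to -0.27, adjusted p = 0.024). The call was lost in each fit that left out 1 library. Against vehicle, at 16.9, 15.8 and 16.8 CPM, the medium dose was at 0.04 ± 0.08. At an unadjusted p under 0.05 there were 629 genes, and DESeq2 called 1 gene at its adjusted threshold. Against the low dose no gene passed in edgeR or in DESeq2, and 523 genes had an unadjusted p under 0.05 in edgeR. Against vehicle the low dose had 16 genes past the threshold (0.0938%) and the high dose 730 (4.28%). These comparisons share the vehicle libraries with that of the medium dose. High-dose replicate 2 had the lowest correlation of deviations with GC content of the 57 libraries in the fit (-0.702). Counts with the GC trend removed are not reported here for the low and high dose against vehicle, so the counts are not read as a response to dose.

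**Figure D4:**
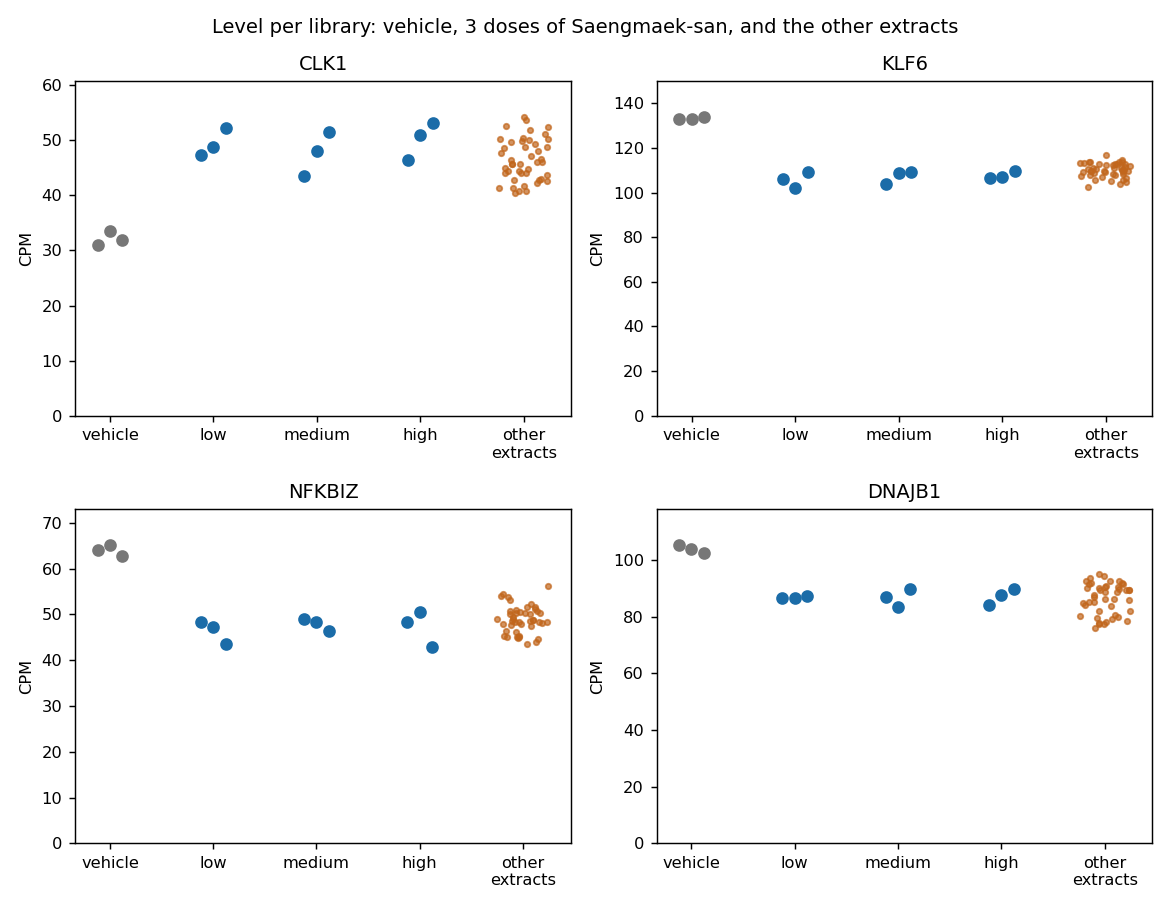
Level in CPM in each library for CLK1, KLF6, NFKBIZ and DNAJB1 in vehicle, at the low, medium and high dose of Saengmaek-san (3 libraries each), and in the 45 libraries of the 5 other extracts. All libraries given an extract lay above vehicle for CLK1 and below it for KLF6, NFKBIZ and DNAJB1.

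The vehicle libraries stood apart from the libraries of the other extracts in the same genes. In the 45 libraries of the 5 other extracts with 3 libraries per dose, CLK1 ran from 40.4 to 54.2 CPM with a median of 46.0, and all 45 lay above the 3 vehicle libraries. KLF6 ran from 102.4 to 117.0 CPM, NFKBIZ from 43.5 to 56.2 CPM and DNAJB1 from 76.2 to 95.3 CPM, and all 45 lay below the 3 vehicle libraries in each. Over the 71 genes, a median of 44 of the 45 lay beyond all 3 vehicle libraries on the side of the medium dose, from 26 for BARD1 to 45. The fewest after BARD1 were 28 for RHOB and 32 for FHDC1. Since the 71 were chosen against these same vehicle libraries, such counts are a description. The matching counts over all genes tested were not taken. Whether a value follows from the extract or from what set the vehicle libraries apart cannot be told apart with 1 vehicle group.

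Against Guibi-tang at the same dose, the genes that differed included NF-kB genes and chemokines, which were lower with Saengmaek-san than with Guibi-tang. By edgeR 4 genes were higher and 63 lower with Saengmaek-san (0.393% of genes, 0.0235% upward and 0.37% downward), 32 of them by a log2 value of 1 or more. With the GC correction 3 were higher and 58 lower (0.358% of genes, 0.0176% upward and 0.34% downward). CXCL1, a neutrophil chemokine, had 1.39, 1.46 and 2.42 CPM with Saengmaek-san, against 21.4, 24.6 and 23.7 CPM with Guibi-tang (log2 -3.76 ± 0.15, adjusted p = 8e-25). PI3, the protease inhibitor elafin, had 3.41, 3.55 and 4.11 CPM with Saengmaek-san, against 21.7, 21.1 and 21.3 CPM with Guibi-tang (log2 -2.54 ± 0.10, adjusted p = 2.06e-26). CXCL8 had 5.54, 5.61 and 6.98 CPM with Saengmaek-san, against 20.6, 26.1 and 19.8 CPM with Guibi-tang (log2 -1.89 ± 0.10, adjusted p = 2.64e-20). None of these 3 overlapped between the formulas. For CXCL8 the vehicle values given above lay above those with Saengmaek-san and below those with Guibi-tang. ICAM1, the adhesion molecule for leukocytes, had 3.65, 3.73 and 4.38 CPM with Saengmaek-san, against 7.75, 7.81 and 9.67 CPM with Guibi-tang (log2 -1.11 ± 0.12 (adjusted p = 1.31e-09). In the NF-kB and chemokine list 18 of 24 members were lower with Saengmaek-san and the median was -0.78, beside 0.00 for all genes. Against vehicle the median of that list with Saengmaek-san was -0.06, and 1 member passed. Guibi-tang itself was not tested against vehicle here. In the interferon list 4 of 24 were lower (IFI6, OAS1, IRF9 and IFIH1).

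Higher with Saengmaek-san than with Guibi-tang were IMPACT (log2 0.31 ± 0.08), AFF1 (log2 0.20 ± 0.05), CAMK2D, a calmodulin-dependent kinase (log2 0.19 ± 0.05), and RBM3, a cold-inducible RNA-binding protein (log2 0.17 ± 0.04). Of the 71 genes that changed against vehicle, GRHL3 alone differed between the formulas (log2 -0.34, adjusted p = 0.0285). NFKBIZ, 48.9, 48.4 and 46.5 CPM with Saengmaek-san and 53.1, 50.1 and 45.2 CPM with Guibi-tang, differed by -0.05 (95% interval -0.16 to 0.07). CLK1 differed by -0.03 (-0.16 to 0.09), KLF6 by 0.01 (-0.07 to 0.08) and DNAJB1 by -0.05 (-0.13 to 0.03). The count of 67 was 42, 37 and 75 without Saengmaek-san replicates 1, 2 and 3, and 193, 81 and 34 without Guibi-tang replicates 1, 2 and 3. Guibi-tang replicate 1 is an earlier-numbered library and its replicates 2 and 3 are later-numbered. With the order term 47 genes passed, 46 of them among the 67, and in the earlier libraries alone, with 1 of Guibi-tang, 20 did, all among the 67.

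**Figure D5:**
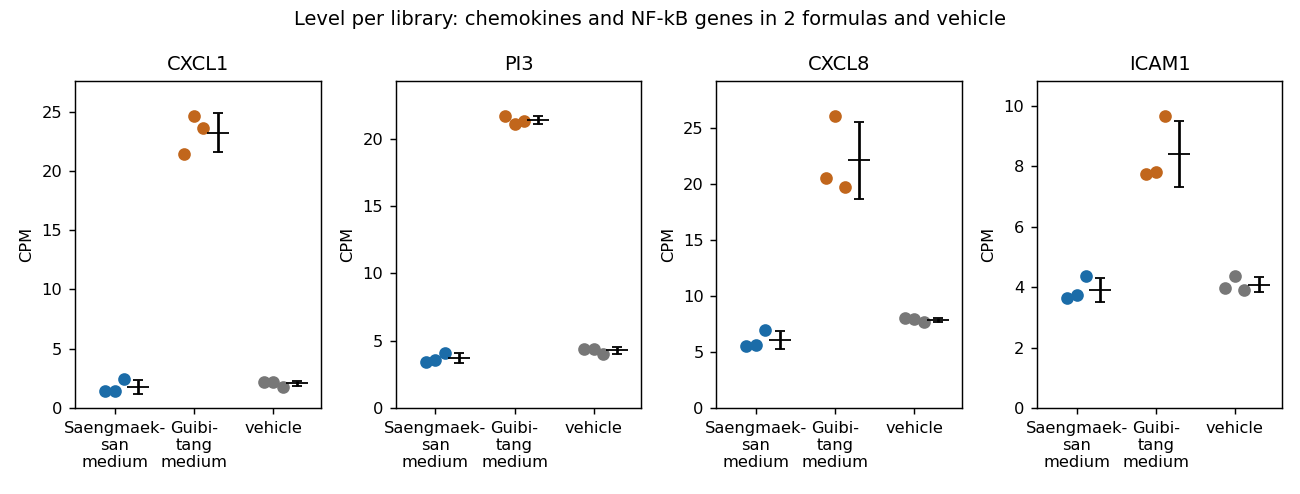
Level in CPM in each library (points), with the mean and SD of each group, for CXCL1, PI3, CXCL8 and ICAM1 with Saengmaek-san and Guibi-tang at the medium dose and in vehicle (3 libraries each). CXCL1 lay at 1.39 to 2.42 CPM with Saengmaek-san, below the 21.4 to 24.6 CPM with Guibi-tang.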

How the data were processed

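The 6 libraries of the comparison, and 51 others that share its fit, came from HT29 cells after 24 h. Libraries were made with a directional mRNA kit and sequenced as paired reads, per the labels' protocols. The authors deposited 1 table of expected counts per gene, estimated by RSEM 1.3.3, with STAR 2.7.3a, Trim Galore 0.6.5 and FastQC 0.11.9 listed beside it, per the submitters' processing notes, which give the build as GRCh38 (hg38). Which annotation release and strand option the counting used is not given in the sources used here. The deposited expected counts were not scaled between libraries (27.7% of values above 0 were not whole) and were made whole by rounding for every test. Symbols were found for 41209 of 60675 identifiers, and positions and transcripts for GC content came from GENCODE release 29 (16921 tested genes, 99.2%).

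The 19 groups of 3 libraries entered 1 fit of edgeR 4.0.16 (R 4.3.3) with filterByExpr, TMM scaling, robust quasi-likelihood estimation, no block and 38 residual degrees of freedom. P-values were adjusted by Benjamini-Hochberg over all 17049 genes, and calls were made at 0.05. CPM values use TMM-scaled library sizes, and each SE was derived from the log2 change and the F statistic. The fit was checked on simulated data. The comparisons, genes, lists and alternatives were chosen with earlier results of these data known. Full values are given for the 12 largest called changes each way (protein coding, a mean of at least 5 CPM in either group, groups apart), for up to 3 members per list and for 12 fixed readouts, and some genes the rule took are given by their log2 change, only counted, or not reported here. Marker lists covered colon epithelium and 5 other cell types.

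The alternatives tried were DESeq2 1.42.0, its size factors in edgeR, no low-count filter, the compared groups alone, a replicate block, an order term, the earlier libraries alone, leaving out each library, and, added after the data had been seen, a GC correction through edgeR offsets (a lowess trend over 40 GC bins per library). Deviations of same-numbered libraries correlated by 0.11, 0.174 and 0.275 between medium and high dose and by 0.107, 0.126 and 0.259 between medium and low dose. The numbers come from the sample titles, and they also follow the library order there. Pairing and a shared place in that order therefore cannot be told apart by these correlations.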

Additional observations from a re-analysis of the deposited data

Results flagged for a closer look

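Saengmaek-san and Guibi-tang at the medium dose differed in 67 genes by edgeR's test of that difference (4 higher and 63 lower with Saengmaek-san). The largest difference among the genes named was CXCL1, at -3.76 on the log2 scale, with 1.39 to 2.42 CPM with Saengmaek-san and 21.4 to 24.6 CPM with Guibi-tang. The medium and the high dose of Saengmaek-san differed in AKR1C1, by -0.43 on the log2 scale, and that call was lost in each of the 6 fits that left out 1 library.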

How the results depend on the processing

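Against vehicle 71 genes passed the threshold, and all 71 kept their direction in each of the 22 alternatives. The alternatives reuse the libraries in which the 71 were chosen, with the groups apart, so a kept direction is a description. The count was 320 with no filter on low counts (112 higher, 208 lower) and 297 with the library order term. It was 533 in the earlier-numbered libraries alone, 190 in DESeq2 and 16 with the compared groups alone. Of the 71, 56 passed with no filter and only 7 with the compared groups alone. Leaving out 1 library gave 4 to 69. The GC correction gave 47 genes (9 higher, 38 lower), 208 with the order term (75 higher, 133 lower), and 8 to 51 when 1 library was also left out: 8 without medium-dose replicate 1, 16 without its replicate 2, and 10, 17 and 13 when vehicle replicate 1, 2 or 3 was left out. Upward calls were 39.4% of the 71, 19.1% with the GC correction, 54.2% with the order term and 35.3% with DESeq2's size factors. CLK1, KLF6 and NFKBIZ passed in all 22 alternatives. The causes were not tested.

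Same-numbered libraries of the medium dose and vehicle had deviations that correlated by 0.045, -0.054 and -0.022. Those of the 2 formulas correlated by 0.14, -0.059 and 0.102. These values do not settle whether the libraries were paired. With the replicate block 106 genes passed against vehicle and 64 against Guibi-tang, and with the block and the GC correction 66 and 59. In the comparisons of doses the replicate block changed no call (1 gene against the high dose, 0 against the low dose).

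Against the high dose 1 gene passed, with 83 under no filter, 7 in the earlier libraries alone, 0 with the groups alone and 0 in each fit that left out 1 library. Against the low dose 0 passed, with 84 under no filter and 1 with the groups alone. Against Guibi-tang 67 passed, with 474 under no filter, 20 in the earlier libraries alone, 27 with the groups alone and 34 to 193 when 1 library was left out.

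For the 24 largest changes against vehicle, 320 of 528 values stayed past the threshold, 208 did not, and none reversed. These 24 were chosen in the same libraries, so their kept direction is a description as well. For 11 other readouts, none past the threshold in the fit reported, 220 of 242 values kept that standing, 13 were past the threshold (of GCLM, SLC7A11, MUC2, EGR1 and MYC) and 9 reversed, all near 0: HMOX1, which ran from -0.003 (without vehicle replicate 3) to 0.078 over the fits without 1 library, and AKR1C1, which ran from -0.006 (without medium-dose replicate 2) to 0.072 over those fits, and was at -0.015 with the GC correction, -0.006 and -0.016 with the order term and the block added to it, and -0.036, -0.044, -0.058 and -0.013 with the correction and 1 library left out. Depth was 26.6 to 38.5 (in units of 1e6 counts) over the 6 libraries, and power by expression level was not tested.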
